A study of Homo sapiens with 18 samples.

Results

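Among the genes whose mean was several-fold higher with the MDM2 inhibitor MI-1061 than with DMSO in SJSA-1 osteosarcoma cells, 103 had a mean near that of DMSO with the MDM2 degrader MD-224. They were chosen from group means of normalized counts. The MI-1061 mean had to be at least 4 times the DMSO mean and at least 50, and the MD-224 mean below 1.5 times DMSO. With neocarzinostatin (NCS) and MI-1061 together, the mean had to lie above 0.5 times that with MI-1061 and below 3 times the larger of the MI-1061 and NCS means. Symbols starting with SLC, ZNF, LINC, HIST, KRT or ABCA or ending in -AS1 were skipped, as were ARC, FOSB, AREG, ATF3, ITGAM, SFN, TTN and RYR1, which removed 18 genes that met the limits. These limits gave 103 of the 3074 listed genes, called members here. A further 224 genes met every limit but the one on MD-224, with MD-224 means of at least 1.5 times DMSO, and are called comparison genes. Members are thus 31.5% of the 327 inhibitor-raised genes. What the limits used is described without tests.

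MDM2 is a ubiquitin ligase that binds the transcription factor p53, blocks it and marks it for destruction. An inhibitor occupies the p53 pocket of MDM2 and leaves the MDM2 protein in place, whereas a degrader recruits another ubiquitin ligase and removes the MDM2 protein. Both kinds of compound release p53, which then turns on genes of growth arrest, repair, cell death and its own feedback, MDM2 among them. SJSA-1 is a human line with an amplified MDM2 gene and working p53, and is often used to test such compounds. All libraries came from this 1 line. NCS is an enediyne that cuts DNA and so starts the damage response that also acts on p53.

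Each of 6 groups had 3 poly(A) RNA libraries. The groups were DMSO throughout (DMSO), 1 µM MI-1061 for the last 24 h (MI-1061), 1 µM MD-224 for the last 24 h (MD-224), 1 µg/mL NCS for 72 h with DMSO in place of a compound for the last 24 h (NCS), and NCS with either compound added for the last 24 h (NCS+MI-1061 and NCS+MD-224). NCS was renewed when the compound was added, after 48 h. The cells without NCS had DMSO in its place, so all 18 libraries share the vehicle.

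The control regions of a few members are shown first, for motifs of p53 and of early response factors. That all members were higher with MI-1061 is fixed by their choice and says nothing of a shared element. Of the 103 members 82 had an entry in the RefSeq promoter table (GRCh38.p14), with the first listed start taken for each gene. The letters below are the 250 bases before the start, 5′ to 3′ on the gene's strand, with a searched motif in capitals. RGS12 (chr4:3285641-3285890, plus strand) is shown for a match to a p53 half-site, in a gene whose libraries with either compound lay above their NCS controls. PPM1D (chr17:60599943-60600192, plus strand), a p53 feedback gene, is shown for TGACGTCA, the cyclic AMP response element. MAP2K3 (chr17:21284461-21284710, plus strand) and CXCL8 (chr4:73740319-73740568, plus strand) are shown for the AP-1 element TGACTCA or TGAGTCA, which immediate early factors bind.
RGS12: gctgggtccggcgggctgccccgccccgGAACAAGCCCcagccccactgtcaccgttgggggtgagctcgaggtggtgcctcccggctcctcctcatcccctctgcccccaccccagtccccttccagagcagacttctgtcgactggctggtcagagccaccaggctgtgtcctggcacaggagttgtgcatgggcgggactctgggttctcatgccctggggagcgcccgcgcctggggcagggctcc
PPM1D: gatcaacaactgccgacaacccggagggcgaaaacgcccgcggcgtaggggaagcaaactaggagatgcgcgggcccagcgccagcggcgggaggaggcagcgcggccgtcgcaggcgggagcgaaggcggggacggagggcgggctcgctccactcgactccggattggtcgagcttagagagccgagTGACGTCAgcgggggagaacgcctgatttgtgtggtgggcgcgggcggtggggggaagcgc
MAP2K3: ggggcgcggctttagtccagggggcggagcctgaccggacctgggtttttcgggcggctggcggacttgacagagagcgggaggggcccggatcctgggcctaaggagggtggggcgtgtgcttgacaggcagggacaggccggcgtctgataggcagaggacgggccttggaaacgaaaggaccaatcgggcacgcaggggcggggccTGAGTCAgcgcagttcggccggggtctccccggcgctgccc
CXCL8: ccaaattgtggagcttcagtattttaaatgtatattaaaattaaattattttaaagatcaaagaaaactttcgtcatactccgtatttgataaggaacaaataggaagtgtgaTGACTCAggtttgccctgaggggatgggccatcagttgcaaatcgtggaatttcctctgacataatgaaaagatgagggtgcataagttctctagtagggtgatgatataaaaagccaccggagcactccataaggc

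Counted from the start site, the first base of the capitals lies at -222 in RGS12, -61 in PPM1D, -41 in MAP2K3 and -137 in CXCL8. The full p53 element is a pair of half-sites of 10 bases each, and only the half-site, by its consensus and with no mismatch, was searched. Windows of 300 bases, 250 before the start and 50 after it, were searched on both strands. The p53 half-site was in 4 of 82 members (4.88%), namely ADGRF5, IL10RA, RGS12 and TMEM236, against 6.54% of 27305 promoters in the table. It was in 6.73% of listed genes and in 3.80% of comparison genes, so members did not have the lowest share. AP-1 was in 9 of 82 members (11%) against 4.92% of all promoters, in ARRDC4, CXCL8, DLGAP1-AS2, IL10RA, LOC100287036, MAP2K3, PTAFR, TRPM6 and XIRP1. Among listed genes AP-1 was in 5.10%, and among comparison genes in 6.33%. The cyclic AMP element was in PPM1D and VGF (2.44%, against 1.98%). The GC box GGGCGG was in 59.8% of members and 44.6% of all promoters, but in 64.6% of the listed genes, and the median GC content was 64.0% in members and 64.7% in listed genes. CCAAT was in 39.0% of members and 35.7% of all promoters, TATAAA in 11% and 12%, and CACGTG in 8.54% and 7.43%. These are matches of letters, and no binding was measured. Gene positions given below are RefSeq gene spans on the same build, and values of a group are in the order of replicates 1 to 3.

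The listed genes held 4490870 to 10535849 reads in the 13 libraries whose reads were recoverable, and normalized sums of 4594460 to 17252589 in all 18. Every listed gene had an NCS+MI-1061 mean at least 1.75 times DMSO, so the table is a selection and its sums are not depths. As a check of the treatments, the ratio of MDM2 to DMSO was 11.6 with MI-1061 and 3.02 with MD-224, and that of CDKN1A, the p21 gene, 29.95 and 7.66. MDM2 transcript was therefore higher with the degrader too. Haematopoietic markers (7 of 28 listed, none a member) summed to 600 to 1279 with DMSO, 3025 to 4081 with MI-1061 and 1260 to 2129 with MD-224. Of 15 bone lineage markers 3 were listed, at summed values of 11728 to 20671 with DMSO, 10141 to 15745 with MI-1061, 27982 to 41981 with MD-224 and 38946 to 49116 with NCS. Striated muscle genes (12 of 47 listed, XIRP1 a member) summed to 418 to 639 with DMSO, 3474 to 5257 with MI-1061 and 565 to 628 with MD-224. Stratified epithelium genes (19 of 56, GRHL3 a member) summed to 22589 to 23269, 38571 to 49361 and 25831 to 26549 in that order, and neuronal genes (17 of 83, GABBR2 a member) to 4317 to 4737, 16494 to 26632 and 11619 to 13093. The part of these markers in the results was not tested.

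Without NCS the 103 members had a median MI-1061 to DMSO ratio of 5.43 (4.04 to 41.4) and a median MD-224 to DMSO ratio of 1.12 (0.419 to 1.49). The comparison genes had medians of 6.87 and 2.32. Over the 327 genes the MD-224 ratio ran on without a gap at the limit: 2 were below 0.5, 33 from 0.5 to 1, 68 from 1 to 1.5, 71 from 1.5 to 2, 126 from 2 to 4, and 27 at 4 or above. All 3 MI-1061 libraries lay above all 3 DMSO libraries in 102 members (65.3% of all listed genes did), the exception being CXCL8. All 3 MD-224 libraries lay above DMSO in 7 members (42.3% of listed genes), which were DFNB31, FAM46C, HSPA4L, ITGAD, PSCA, RGS12 and ZFPM1. They lay below DMSO in another 7 (3.38% of listed genes), which were C3orf67, CHADL, KBTBD8, LOC100288181, MEGF11, STAB2 and XIRP1. MI-1061 libraries lay above MD-224 libraries in 101 members (49.3% of listed genes). The 2 compounds were given at the same dose and time. Since the limits used these groups, the shares describe the choice and are read no further.

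**Figure D1:**
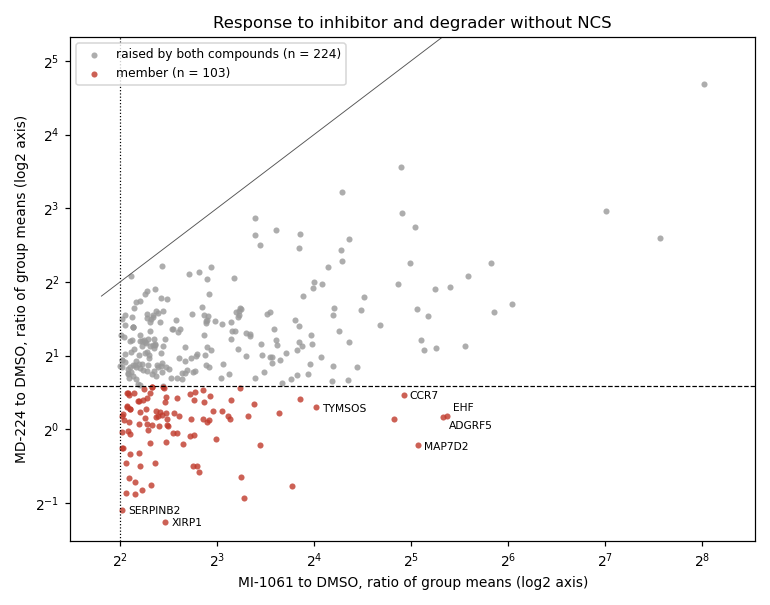
Ratio of group means to DMSO with MI-1061 (x axis, log2 scale) and with MD-224 (y axis, log2 scale), 1 point for each of the 103 members (red) and 224 comparison genes (grey). The dashed line is the limit of 1.5 on MD-224, the dotted line the limit of 4 on MI-1061, and the slanted line marks equal ratios; the points run across the dashed line without a gap.

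Genes at the limits show how close the classes lie. Just inside the MD-224 limit was FAM46C, a poly(A) polymerase gene, at 252, 346 and 280.3 with DMSO, 1776, 1003 and 1642 with MI-1061, and 582, 379.9 and 349.7 with MD-224. After NCS, FAM46C had 526, 466 and 457 with no compound, 999, 1035 and 1018 with MI-1061, and 561, 547 and 549.8 with MD-224. ARRDC4, an arrestin-like adaptor, was next, at 324, 153 and 149 with DMSO, 1559, 901 and 942 with MI-1061, and 542, 140.4 and 253 with MD-224. MD-224 replicate 1 of ARRDC4 was above every DMSO library and replicate 2 below every one, and without replicate 1 its MD-224 to DMSO ratio was 0.943. After NCS, ARRDC4 had 864, 666 and 594 with no compound, 1619.8, 1352 and 1285 with MI-1061, and 1134, 920.4 and 923 with MD-224. Just outside were TNIP3, an inhibitor of NF-kB signalling, and SBSN, an epidermal protein gene. TNIP3 was at 32.8, 19.2 and 26.6 with DMSO, 187, 122 and 118 with MI-1061, and 34.4, 29.6 and 54.4 with MD-224. After NCS, TNIP3 had 86.3, 94.8 and 97.6 with no compound, 85.7, 83 and 111 with MI-1061, and 97, 77.1 and 186 with MD-224. SBSN was at 4.38, 23.1 and 6.14 with DMSO, 59.2, 51.6 and 44.6 with MI-1061, and 10.3, 12.2 and 28.3 with MD-224. DMSO replicate 2 lay among its MD-224 libraries and the other DMSO libraries below them. After NCS, SBSN had 106, 67.1 and 74 with no compound, 104, 73.5 and 64 with MI-1061, and 129.7, 71.2 and 137 with MD-224. The MD-224 to DMSO ratios of these 4 were 1.49, 1.49, 1.51 and 1.51.

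At the MI-1061 limit the ratios were 4.04 for WDR72, a WD-repeat protein of enamel formation, and 4.05 for ABALON, a noncoding RNA of the BCL2L1 locus, inside, against 3.95 for both PTP4A1, a phosphatase, and CPEB4, a regulator of poly(A) tails, outside. WDR72 was at 26.3, 7.69 and 10.2 with DMSO, 51.4, 88.7 and 38.4 with MI-1061, and 17.2, 11.6 and 8.38 with MD-224. After NCS, WDR72 had 35.3, 26.8 and 30.9 with no compound, 40.5, 39.5 and 56 with MI-1061, and 50.6, 23.7 and 34.4 with MD-224. The values of WDR72 were low, and DMSO replicate 1 was far above the other DMSO libraries. Without that library its MI-1061 to DMSO ratio was 6.65. ABALON was at 121, 99 and 117 with DMSO, 428, 520.5 and 417 with MI-1061, and 132, 102 and 93.2 with MD-224. After NCS, ABALON had 66.7, 102 and 120.0 with no compound, 323, 319 and 376 with MI-1061, and 209.9, 161 and 170.1 with MD-224. PTP4A1 was at 7837, 7546 and 6682 with DMSO, 27142, 28094 and 31930.0 with MI-1061, and 11254, 9153 and 10332 with MD-224. After NCS, PTP4A1 had 9521, 7283 and 8677 with no compound, 25933, 20459.8 and 22977 with MI-1061, and 16412, 12350.2 and 12375 with MD-224. In PTP4A1 all libraries with a compound lay above their controls. CPEB4 was at 3837, 4385 and 2579 with DMSO, 14427, 13458 and 14789 with MI-1061, and 4866, 3695 and 3674 with MD-224. After NCS, CPEB4 had 5422, 4415 and 4564 with no compound, 11894, 10092 and 10101 with MI-1061, and 8100.1, 6072 and 7388 with MD-224.

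**Figure D2:**
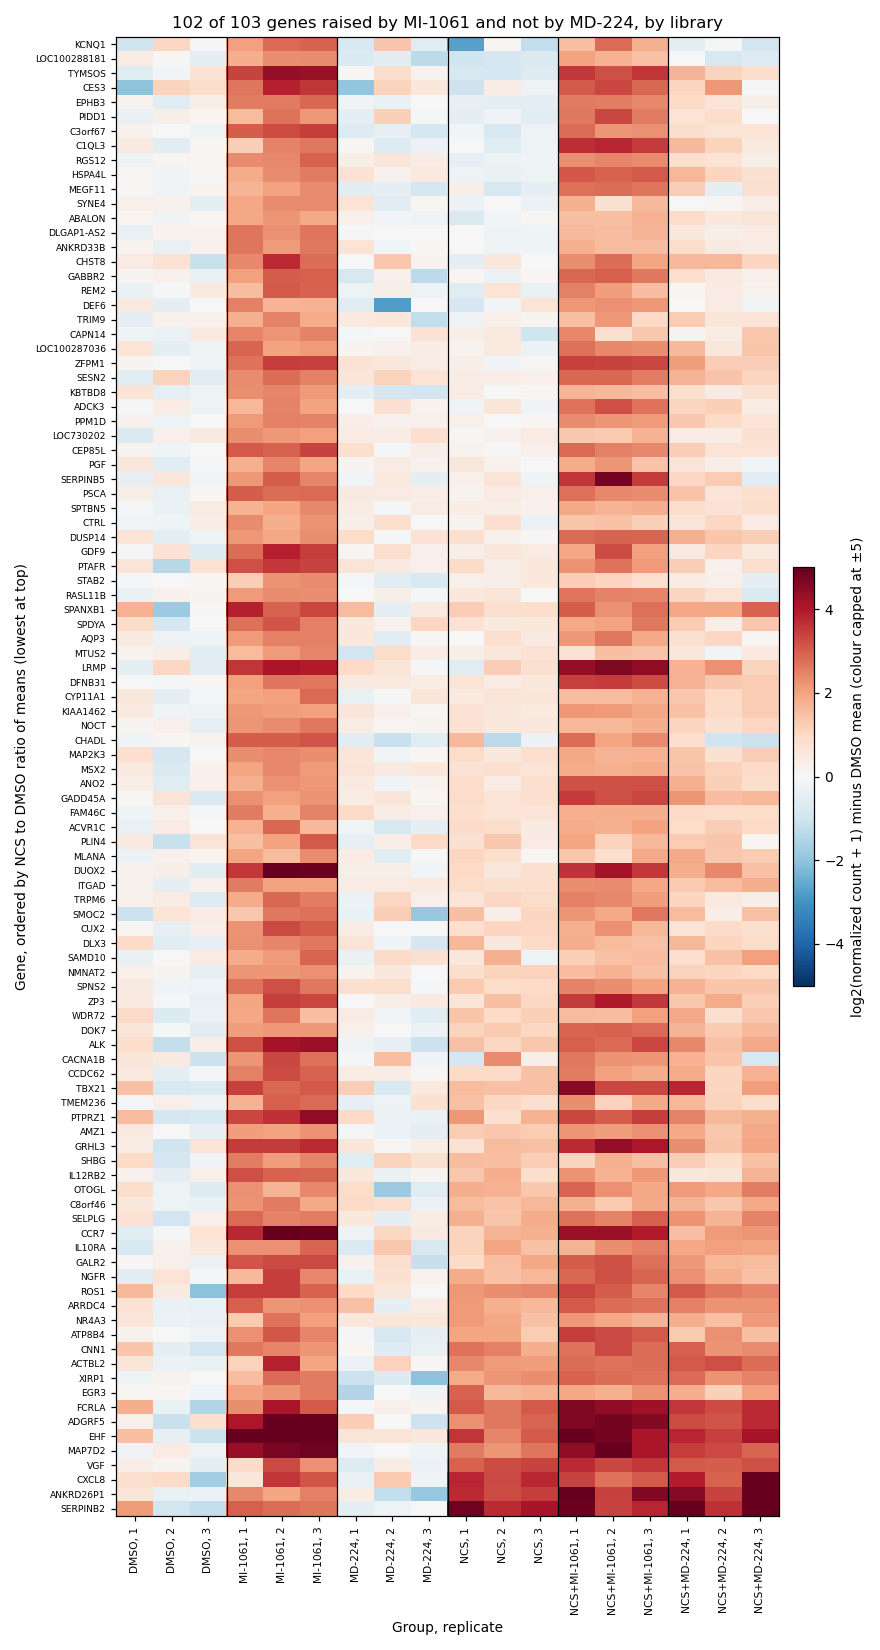
Each row is 1 of 102 of the 103 members, ordered by its NCS to DMSO ratio of means with the lowest at the top, and each column 1 of the 18 libraries by group and replicate. Colour is log2(normalized count + 1) minus the mean of the 3 DMSO libraries, from -5 to 5. Most cells of the MI-1061 columns are red, with CXCL8 replicate 1 near white. The MD-224 columns are mostly near white, with some blue cells such as DEF6 replicate 2. The NCS columns turn red only toward the bottom.

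The p53 and damage response genes among the members were PPM1D, GADD45A, SESN2, PIDD1 and DUSP14. PPM1D encodes the phosphatase Wip1, which removes phosphates from p53 and from damage kinases (chromosome 17, 60600193 to 60666280). Without NCS, PPM1D was at 1836, 1334 and 1611 with DMSO, 6826, 9007 and 8879 with MI-1061, and 1984, 1818 and 1873 with MD-224. After NCS, PPM1D had 1880.0, 1548 and 1684 with no compound, 8232, 7282 and 6933 with MI-1061, and 4022, 3051 and 2547 with MD-224. Both MI-1061 groups stood clear of their controls, whereas the MD-224 libraries overlapped their control without NCS and not after it. GADD45A, a growth arrest protein gene (chromosome 1, 67685201 to 67688334), was at 4262, 6327 and 2416 with DMSO, 19862, 16778 and 19134 with MI-1061, and 5229.7, 6144 and 4319.9 with MD-224. After NCS, GADD45A had 7561, 6219.7 and 7286 with no compound, 45155, 37247 and 40327 with MI-1061, and 18595, 11736 and 12799.7 with MD-224. Its NCS+MI-1061 values were higher than with either agent alone in every library, and DMSO replicate 2 was the highest of the 3 controls. Without DMSO replicate 2 the MD-224 to DMSO ratio of GADD45A was 1.57, above the limit of 1.5. Without DMSO replicate 3 its MI-1061 to DMSO ratio was 3.51, below the limit of 4. SESN2, a sestrin that restrains mTORC1 (chromosome 1, 28259518 to 28282491), was at 1071, 3447 and 1073 with DMSO, 8050.4, 10868 and 9128 with MI-1061, and 2403, 3382 and 2509.6 with MD-224. After NCS, SESN2 had 2032, 2015 and 1887 with no compound, 11491, 11615 and 9233 with MI-1061, and 5159, 4238 and 3309 with MD-224. DMSO replicate 2 was far above the other DMSO libraries, and without it the MD-224 to DMSO ratio of SESN2 was 2.58, above the limit of 1.5. PIDD1, a scaffold that activates caspase-2, was at 280.1, 445 and 388 with DMSO, 1082, 2378 and 1629 with MI-1061, and 268, 825 and 352 with MD-224. After NCS, PIDD1 had 257, 324 and 252 with no compound, 2266, 3679.6 and 2224 with MI-1061, and 581, 676 and 367 with MD-224. MD-224 replicate 2 of PIDD1 was above every DMSO library and the other MD-224 libraries were not. DUSP14, a phosphatase that acts on MAP kinases, was at 70.04, 30.8 and 36.8 with DMSO, 198, 168 and 218 with MI-1061, and 82.6, 39.9 and 71.2 with MD-224. After NCS, DUSP14 had 76.5, 50.5 and 44.9 with no compound, 311, 343 and 331 with MI-1061, and 152, 113 and 101 with MD-224. Without DMSO replicate 1 the MD-224 to DMSO ratio of DUSP14 was 1.91, above the limit of 1.5. Its MI-1061 to DMSO ratio was 3.64 without DMSO replicate 2 and 3.86 without replicate 3, below the limit of 4. The p53 list had 78 genes, of which 64 were listed, 5 were members and 31 comparison genes.

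The cell-surface receptors were 16 members. EPHB3, an ephrin receptor kinase (chromosome 3, 184561785 to 184582408), was at 596, 367 and 672 with DMSO, 3226, 3176 and 3827 with MI-1061, and 469, 419.8 and 540.2 with MD-224. After NCS, EPHB3 had 398, 381 and 389 with no compound, 3176, 3145 and 2820.1 with MI-1061, and 1052, 834 and 641 with MD-224. The MI-1061 and NCS+MI-1061 libraries of EPHB3 lay above those of all other groups. ALK, a receptor kinase of the developing nervous system, was at 43.8, 9.61 and 29.7 with DMSO, 219, 431 and 489 with MI-1061, and 20.7, 17.4 and 10.5 with MD-224, with an MI-1061 to DMSO ratio of 13.7. After NCS, ALK had 65.7, 49 and 61.8 with no compound, 193, 173 and 245 with MI-1061, and 128, 66 and 90.1 with MD-224. CCR7, which guides lymphocytes to lymph nodes, was at 6.57, 9.61 and 17.4 with DMSO, 154, 523 and 341 with MI-1061, and 9.18, 22.5 and 14.7 with MD-224, a ratio of 30.3. After NCS, CCR7 had 23.5, 36.3 and 38.2 with no compound, 229, 224 and 177 with MI-1061, and 31.6, 48.9 and 51.6 with MD-224. MI-1061 replicate 1 was the lowest of its group for ALK and CCR7, and still above every library of the other groups without NCS. ADGRF5, an adhesion receptor known from lung surfactant control, was at 6.57, 1.92 and 10.2 with DMSO, 103, 403 and 247 with MI-1061, and 13.8, 5.15 and 2.09 with MD-224, a ratio of 40.2. After NCS, ADGRF5 had 29.4, 37.9 and 46.1 with no compound, 161, 172 and 149 with MI-1061, and 59.1, 54.1 and 83 with MD-224. It rests on few counts in DMSO. Other receptors were NGFR, the p75 neurotrophin receptor (6.11), PTAFR, the receptor of platelet-activating factor (8.67), GABBR2, a GABA-B receptor subunit (6.72), and the kinase gene ROS1 (6.79), each with its MI-1061 to DMSO ratio of means. Without DMSO replicate 1 the ratio of ROS1 was 14.3, and without MI-1061 replicate 2 that of NGFR was 3.97. The MD-224 to DMSO ratio also passed the limit of 1.5 in some of these receptors. It was 2.01 in ROS1 without DMSO replicate 1 and 1.52 in NGFR without replicate 2. Without replicate 3 it was 1.91 in CCR7 and 1.65 in ADGRF5.

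Of the 9 transcription regulators EHF, an ETS factor of epithelia, had an MI-1061 to DMSO ratio of 41.4, the highest of the members when all libraries were used. It was at 17.5, 3.84 and 2.05 with DMSO, 256, 449.7 and 263 with MI-1061, and 9.18, 9.01 and 8.38 with MD-224. After NCS, EHF had 75.6, 34 and 52.7 with no compound, 274, 179 and 108 with MI-1061, and 90.7, 69 and 111 with MD-224. DMSO replicate 1 was the highest of its group, and without it the MI-1061 to DMSO ratio of EHF was 109.6. Without DMSO replicate 2 it was 33.0, below MAP7D2 (42.7), and without replicate 3 it was 30.2, below ADGRF5 (59.2) and CCR7 (42.0). The MD-224 to DMSO ratio of EHF was 1.14, and without DMSO replicate 1 it was 3.01, above the limit of 1.5. NCS without a compound left EHF 6.93 times its DMSO mean, with no overlap, and 18.4 times without DMSO replicate 1. ZFPM1, a cofactor of GATA factors (chromosome 16, 88451769 to 88537031), was at 241, 223 and 194 with DMSO, 1457, 2401 and 2326 with MI-1061, and 361, 325 and 284 with MD-224. After NCS, ZFPM1 had 269.8, 194 and 226 with no compound, 2341, 2308 and 2222 with MI-1061, and 925, 509 and 517 with MD-224. Its MD-224 libraries were all above its DMSO libraries, at a ratio of 1.47, and of 1.55 without DMSO replicate 1. The other regulators were the homeobox genes MSX2 (4.26), DLX3 (4.94) and CUX2 (7.43), the epithelial factor GRHL3 (12.5), TBX21 of T cells (7.21), and the early response genes EGR3 (5.14) and NR4A3 (4.19), with MI-1061 to DMSO ratios in parentheses. TBX21 and GRHL3 had DMSO means of only 9.94 and 5.56. Without DMSO replicate 1 the ratio of TBX21 was 18.1 and that of DLX3 7.70. Without that library the MD-224 to DMSO ratio was 2.75 in TBX21 and 1.66 in MSX2, above the limit of 1.5. In GRHL3 it was 1.53 without DMSO replicate 3.

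Signalling genes included RGS12 and MAP2K3. RGS12 encodes a protein that shortens G protein signals (chromosome 4, 3285891 to 3439913). It was at 2082, 2708 and 2664 with DMSO, 12562, 13192 and 19018 with MI-1061, and 2997, 3802 and 3168 with MD-224. After NCS, RGS12 had 1874, 2084 and 2141 with no compound, 12283, 13508 and 12553 with MI-1061, and 4350.1, 4015 and 3063 with MD-224. MD-224 libraries were all above DMSO libraries, at a ratio of 1.34, and NCS alone left a ratio of 0.818. MAP2K3, a kinase that activates p38 (chromosome 17, 21284711 to 21315240), was at 5098, 1619 and 2857 with DMSO, 14195, 15170.0 and 14413 with MI-1061, and 4415, 2574 and 3057 with MD-224. After NCS, MAP2K3 had 5465, 4179 and 5201 with no compound, 10904, 9252 and 9692 with MI-1061, and 7426, 4897 and 6782 with MD-224. The DMSO libraries spread widely and covered those with MD-224. Secreted factors were 7 members, among them PGF, a placental growth factor (4.06), SMOC2, a matrix protein (4.89), VGF, a neuropeptide precursor (5.56, and 3.44 without MI-1061 replicate 2), and C1QL3, a synaptic C1q-like protein. C1QL3 was at 113, 56.7 and 90.03 with DMSO, 194, 475 and 523 with MI-1061, and 86.1, 52.8 and 68.1 with MD-224. After NCS, C1QL3 had 83.4, 53.7 and 69.1 with no compound, 1085, 1169.6 and 954 with MI-1061, and 258, 182 and 118 with MD-224, so MI-1061 gave more with NCS than without it in every library.

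CXCL8, the neutrophil chemokine interleukin 8, was the member whose MI-1061 libraries overlapped DMSO. It was at 171, 193 and 28.6 with DMSO, 147, 1182 and 885 with MI-1061, and 75.7, 244 and 85.9 with MD-224. After NCS, CXCL8 had 1383, 972 and 1339.8 with no compound, 1035, 649 and 839.6 with MI-1061, and 1519, 762 and 4783 with MD-224. MI-1061 replicate 1 and NCS+MD-224 replicate 3 stood apart from their groups, the former low and the latter high. SERPINB2, an inhibitor of plasminogen activators, was at 131, 15.4 and 12.3 with DMSO, 239, 209 and 197 with MI-1061, and 20.7, 24.5 and 29.3 with MD-224. After NCS, SERPINB2 had 903, 411 and 538 with no compound, 906, 322 and 432 with MI-1061, and 1316, 389 and 3325 with MD-224. DMSO replicate 1 was far above the other DMSO libraries, and NCS+MD-224 replicate 3 was again the highest. Its MD-224 to DMSO ratio was 0.468, and without DMSO replicate 1 it was 1.79, above the limit of 1.5. The MI-1061 to DMSO ratio of SERPINB2 went from 4.06 to 15.5 without that library.

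Cytoskeletal and junction genes were 10 members. DFNB31, also named WHRN, encodes whirlin, a scaffold of sensory hair bundles (chromosome 9, 114402080 to 114505473). It was at 612, 574 and 629 with DMSO, 2497, 3843 and 3756 with MI-1061, and 829.5, 859 and 776 with MD-224. After NCS, DFNB31 had 979, 794 and 868 with no compound, 6417, 6799 and 5840.2 with MI-1061, and 2015, 1530.0 and 1463 with MD-224. Its groups did not overlap in any of the comparisons made here, and MD-224 was above DMSO at a ratio of 1.36. KIAA1462, also named JCAD, encodes a junction protein of endothelium. It was at 3445, 2076 and 2016 with DMSO, 11024, 10429.5 and 10166 with MI-1061, and 3737, 2904 and 2607 with MD-224. After NCS, KIAA1462 had 4045, 3614 and 3421 with no compound, 10856, 10638 and 9415 with MI-1061, and 6683, 4738 and 5825 with MD-224. Without DMSO replicate 1 the MD-224 to DMSO ratio of KIAA1462 was 1.51, above the limit of 1.5. Its MI-1061 to DMSO ratio was 3.86 without DMSO replicate 2 and 3.82 without replicate 3, below the limit of 4. MAP7D2, a microtubule-binding protein gene, was at 2.19, 3.84 and 2.05 with DMSO, 72, 94.7 and 105 with MI-1061, and 2.29, 2.58 and 2.09 with MD-224, an MI-1061 ratio of 33.6. After NCS, MAP7D2 had 20.6, 15.8 and 21.8 with no compound, 76.2, 197 and 59.97 with MI-1061, and 39, 34.1 and 26.3 with MD-224. With DMSO this gene was within a few counts of 0. XIRP1, an actin-binding protein of striated muscle, had the lowest MD-224 to DMSO ratio, 0.419, from 17.5, 23.1 and 20.5 with DMSO, 60.5, 151 and 126 with MI-1061, and 9.18, 12.2 and 4.19 with MD-224. After NCS, XIRP1 had 76.5, 97.9 and 106 with no compound, 164, 146 and 137 with MI-1061, and 152, 101 and 117 with MD-224. ACTBL2, an actin-like gene, and SPANXB1, 1 of a family of cancer-testis genes, resemble other genes. Sharing of reads with these was not examined, so their values are uncertain. Without MI-1061 replicate 2 the MI-1061 to DMSO ratio of ACTBL2 went from 6.79 to 3.03, below the limit of 4. Without DMSO replicate 1 the MD-224 to DMSO ratio of SPANXB1 went from 1.10 to 2.98, above the limit of 1.5.

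Among enzymes, chaperones and genes without an assigned role, HSPA4L encodes a chaperone of the HSP110 family (chromosome 4, 127781796 to 127840733). It was at 1220.2, 1028 and 1206 with DMSO, 4129, 5988 and 7033 with MI-1061, and 1895, 1347 and 1619 with MD-224. After NCS, HSPA4L had 961, 922 and 950.0 with no compound, 9909, 8925 and 9739 with MI-1061, and 3582, 2413 and 1953 with MD-224. NCS alone put it below DMSO and NCS+MI-1061 above MI-1061, without overlap in either case. C3orf67, also named CFAP20DC (chromosome 3, 58716173 to 59050025), was at 171, 149 and 121 with DMSO, 1179, 1421 and 1589 with MI-1061, and 92.9, 108 and 78.5 with MD-224. After NCS, C3orf67 had 130.5, 83.7 and 122 with no compound, 1021, 682 and 706 with MI-1061, and 267, 233 and 236 with MD-224. MD-224 libraries were below DMSO without NCS and above their NCS control after it. ANKRD33B, an ankyrin-repeat gene, was at 3688, 2524 and 3889 with DMSO, 20891, 14658 and 20542 with MI-1061, and 5371, 3012 and 3429 with MD-224. After NCS, ANKRD33B had 3277, 2847 and 2812 with no compound, 11322, 9734 and 9723 with MI-1061, and 6219, 4565 and 4294 with MD-224. It had the largest MI-1061 mean of the members by normalized count, which is not per length. CEP85L, a centrosomal protein gene, was at 571, 428 and 511 with DMSO, 4203, 3891 and 5254 with MI-1061, and 873, 485 and 637 with MD-224. After NCS, CEP85L had 572, 516 and 590.5 with no compound, 3601, 2853 and 2649.5 with MI-1061, and 1167, 807 and 808 with MD-224. For CEP85L and ANKRD33B the NCS+MI-1061 libraries lay below those with MI-1061 alone. DUOX2, an oxidase that makes hydrogen peroxide, was at 10.9, 11.5 and 6.14 with DMSO, 118, 391 and 301 with MI-1061, and 11.5, 11.6 and 8.38 with MD-224, a ratio of 28.3. After NCS, DUOX2 had 19.6, 14.2 and 17 with no compound, 124, 183 and 116 with MI-1061, and 34.8, 53.4 and 27.3 with MD-224. LRMP, also named IRAG2, an endoplasmic reticulum protein gene of lymphoid cells, was at 4.38, 14.4 and 4.09 with DMSO, 88.7, 125 and 117 with MI-1061, and 13.8, 10.3 and 6.28 with MD-224. After NCS, LRMP had 3.92, 16.6 and 12.1 with no compound, 157, 191 and 163 with MI-1061, and 24.3, 35.6 and 15.2 with MD-224. Both had low values with DMSO, and MI-1061 libraries far above them.

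TYMSOS, an RNA from the opposite strand at the thymidylate synthase gene (chromosome 18, 649620 to 658291), led the 7 noncoding or pseudogene members. It was at 33.9, 48.1 and 88 with DMSO, 552, 1133 and 1076 with MI-1061, and 53.9, 95.9 and 59.7 with MD-224. After NCS, TYMSOS had 29.4, 28.4 and 33.3 with no compound, 613, 501 and 628 with MI-1061, and 171, 114 and 98.2 with MD-224. The NCS libraries were below all DMSO libraries. Whether counting used strand is not given in the sources used here. Counts of TYMSOS, ABALON and DLGAP1-AS2 may thus include reads of partner genes where their exons overlap, and such overlap was not examined. No member value was 0, but 31 members had fewer than 50 reads over the 3 DMSO libraries together, with a lowest total of 8.

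MD-224 after NCS was the 1 comparison tested. No limit used the NCS+MD-224 libraries, and the NCS libraries entered the choice only through 1 upper limit. It asks whether genes that stayed near DMSO with the degrader alone also stayed near their control after NCS. Of the 103 members 16 rose (15.5%) and 0 fell, by limma with Benjamini-Hochberg adjustment over 3073 tested genes. No member had an estimate below 0 with an unadjusted p under 0.05, and edgeR and DESeq2 called 0 lower as well. Over all tested genes 15.1% rose and 0% fell (3 lower genes at an unadjusted p under 0.05), and of the 224 comparison genes 81 rose (36.2%). Taken over all levels, the members' share was thus near that of the table, while within levels of the NCS mean the shares differed, as given below. Their median log2 difference was 0.47 (1.38-fold), beside 0.63 for comparison genes and 0.30 for all genes. The estimate was above 0 in 91 members and below 0 in 12, and 30 members had an unadjusted p under 0.05. All 3 NCS+MD-224 libraries were above all 3 NCS libraries in 43 members (40.8% of listed genes) and below them in 0 (1.04%).

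**Figure D3:**
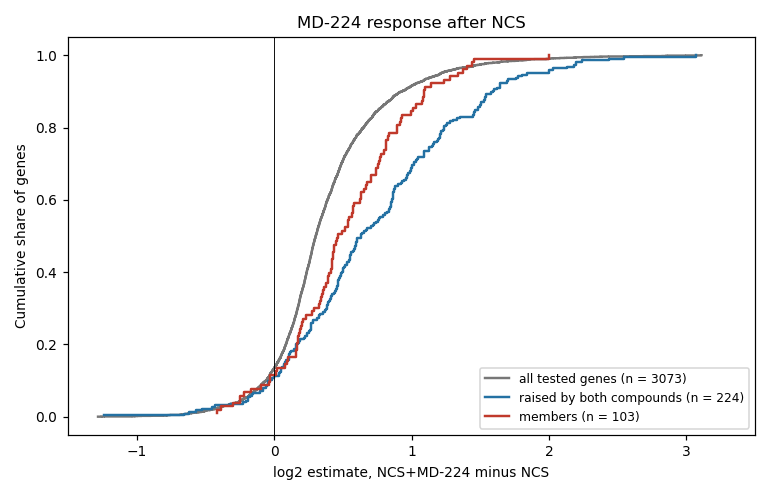
Cumulative share of genes (y axis) against the limma log2 estimate of NCS+MD-224 minus NCS (x axis), for the 103 members (red), the 224 comparison genes (blue) and all 3073 tested genes (grey). The red line lies between the other lines over most of the range, with medians of 0.47, 0.63 and 0.30.

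HSPA4L rose by log2 1.44 (SE 0.20, 2.72-fold, limma adjusted p = 0.000126). ZFPM1 rose by log2 1.45 (SE 0.23, 2.73-fold, limma adjusted p = 0.000335). TYMSOS had the largest rise, log2 2.00 (SE 0.35, 4.0-fold, limma adjusted p = 0.000856), from an NCS mean of 30.4. DFNB31 rose by log2 0.91 (SE 0.16, 1.88-fold, limma adjusted p = 0.000949), PPM1D by 0.89 (SE 0.16, 1.85-fold, limma adjusted p = 0.00121). RGS12 rose by 0.89 (SE 0.16, 1.86-fold, limma adjusted p = 0.00124), EPHB3 by 1.08 (SE 0.20, 2.12-fold, limma adjusted p = 0.0015). These genes are, in order, a chaperone, a GATA cofactor, an antisense RNA, a scaffold, a phosphatase, a G protein regulator and a receptor kinase, all described above with their libraries. C3orf67 rose by log2 1.14 (SE 0.22, 2.21-fold, limma adjusted p = 0.00203). The other 8 that rose were GADD45A (log2 1.01), ABALON (0.93), C1QL3 (1.38), ANKRD33B (0.74), KIAA1462 (0.63), CEP85L (0.71), SESN2 (1.08) and DUSP14 (1.09), with limma adjusted p between 0.0114 and 0.0314. In each of the 16 the 3 NCS+MD-224 libraries were above the 3 NCS libraries, and the NCS+MI-1061 libraries above both. Calls went with level. Of members with an NCS mean below 50, 1 of 46 rose (2.17%, beside 5.98% of all tested genes at that level). From 50 to 200 it was 4 of 26 (15.4%, beside 7.90%), and from 200 to 1000, 5 of 22 (22.7%, beside 15.6%). At 1000 or more 6 of 9 rose (66.7%, beside 24.1%). Among comparison genes the shares were 20.6%, 15.2%, 41.5% and 75.9%, from the lowest level to the highest. The part of level in the members' share was not tested.

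**Figure D4:**
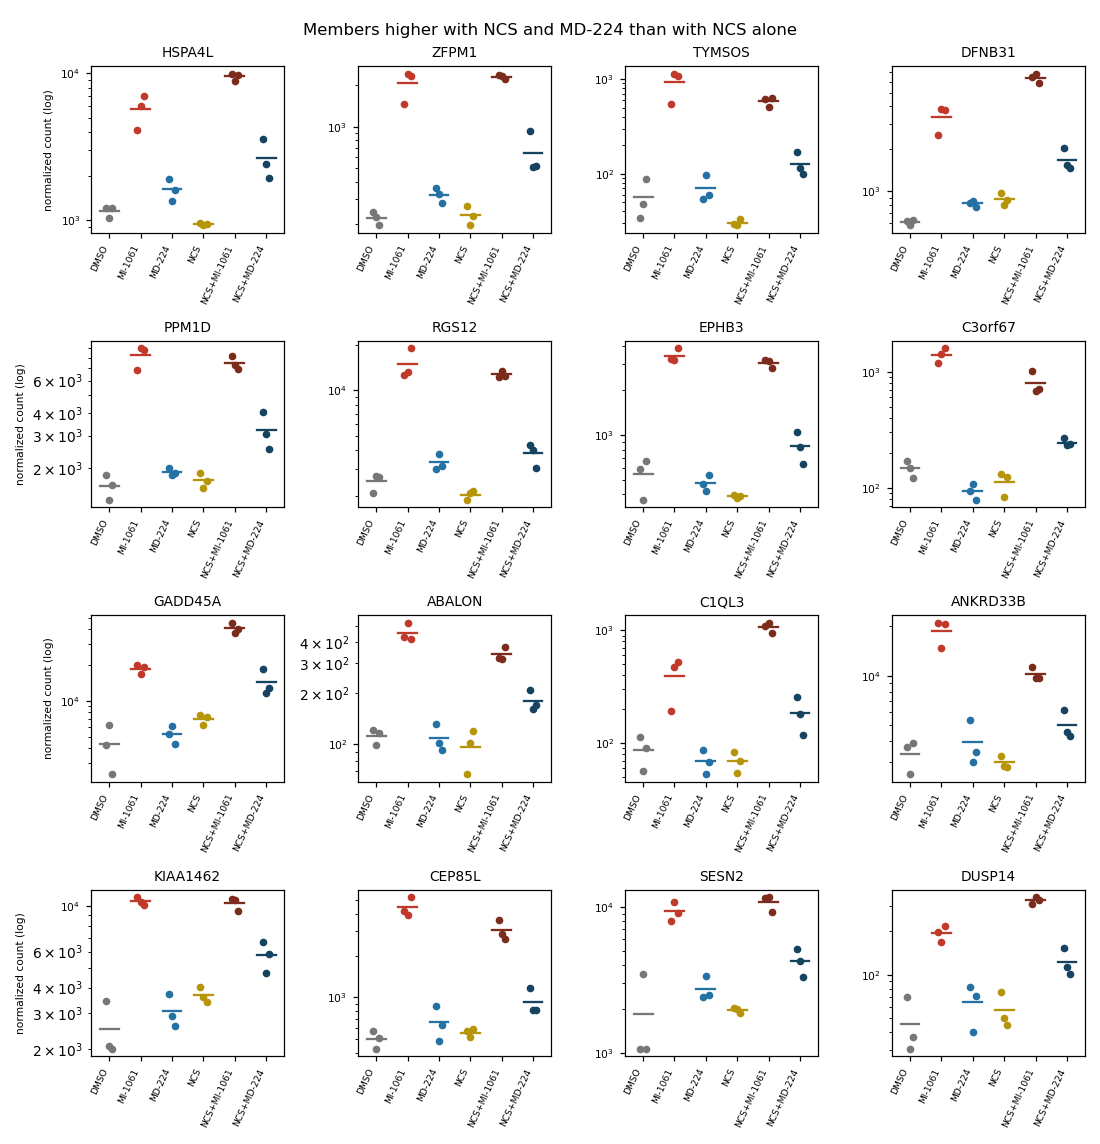
Normalized counts (log axis) of the 16 members that rose with MD-224 after NCS, 1 panel a gene, with 3 libraries a group as points and the group mean as a bar. In each panel the NCS+MD-224 points lie above the NCS points and below the NCS+MI-1061 points.

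With the replicate number as a block 26 members rose (25.2%) and 755 of all genes (24.6%): the same 16 and ADCK3, CHST8, PIDD1, PSCA, LOC100287036, SPTBN5, DLGAP1-AS2, DUOX2, LRMP and KBTBD8. TMM scaling takes most genes as unchanged, whereas every listed gene had an NCS+MI-1061 mean at least 1.75 times DMSO. It can thus remove treatment differences that the table shares. It took the median of all genes from 0.30 to -0.02 on the log2 scale. Under it 7 members rose (6.80%, beside 3.77% of all genes, where 6 genes fell), and their median was 0.15. Without NCS+MD-224 replicate 1, 8 members rose (7.77%, beside 6.05% of all genes). HSPA4L, ZFPM1, TYMSOS, DFNB31, PPM1D and C3orf67 passed in all 19 alternatives tried, RGS12 in all but TMM scaling (adjusted p = 0.0611), and EPHB3 in all but 2 (up to 0.0753). The other 8 lost the call in 5 to 11 of them, with an adjusted p of up to 0.492 over these alternatives.

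The 8 members with an estimate below 0 and the smallest p were IL12RB2, EGR3, STAB2, CUX2, CHADL, TRPM6, SHBG and MTUS2, with limma adjusted p of 0.523 to 0.757. IL12RB2, an interleukin 12 receptor chain, was at 9.85, 5.77 and 10.2 with DMSO, 86.2, 72 and 69.2 with MI-1061, and 12.6, 6.44 and 9.42 with MD-224. After NCS, IL12RB2 had 22.6, 31.6 and 16.4 with no compound, 44, 30.1 and 41.3 with MI-1061, and 12.7, 13.3 and 29.4 with MD-224. EGR3 was at 15.3, 15.4 and 12.3 with DMSO, 60.5, 69.6 and 90.7 with MI-1061, and 4.59, 14.2 and 12.6 with MD-224. After NCS, EGR3 had 118, 45.8 and 49.7 with no compound, 57.1, 51.4 and 72 with MI-1061, and 52.7, 34.1 and 61.8 with MD-224. NCS replicate 1 of EGR3 was far above the other NCS libraries, and its estimate of -0.42 went to 0.01 without that library. STAB2, a scavenger receptor, was at 29.5, 30.8 and 31.7 with DMSO, 73.3, 149.9 and 161 with MI-1061, and 28.7, 20.6 and 17.8 with MD-224. After NCS, STAB2 had 36.3, 38.7 and 44.9 with no compound, 73.8, 64.8 and 56 with MI-1061, and 40.1, 37.1 and 22.3 with MD-224. CUX2 was at 411, 296 and 484 with DMSO, 1843, 3867 and 3142 with MI-1061, and 498, 398 and 384 with MD-224. After NCS, CUX2 had 705, 817 and 789 with no compound, 1340.1, 1914 and 1227 with MI-1061, and 629.6, 747 and 681 with MD-224. For these genes the NCS+MD-224 libraries overlapped the NCS libraries. CHADL, a chondroadherin-like matrix protein, was at 4.38, 5.77 and 6.14 with DMSO, 51.4, 51.6 and 55.3 with MI-1061, and 3.44, 1.93 and 3.14 with MD-224. After NCS, CHADL had 18.6, 1.58 and 4.24 with no compound, 42.8, 23.7 and 32 with MI-1061, and 10.5, 2.22 and 2.03 with MD-224. Without NCS replicate 1 the estimate of CHADL turned from -0.41 to 0.39. TRPM6, a magnesium channel, was at 26.3, 30.8 and 14.3 with DMSO, 84.9, 170.3 and 138 with MI-1061, and 18.4, 47 and 27.2 with MD-224. After NCS, TRPM6 had 36.3, 47.4 and 44.3 with no compound, 134, 126 and 98.6 with MI-1061, and 48.5, 32.6 and 28.4 with MD-224. SHBG, a sex steroid carrier, was at 19.7, 4.81 and 8.18 with DMSO, 60.5, 43.2 and 55.3 with MI-1061, and 5.74, 21.2 and 16.8 with MD-224. After NCS, SHBG had 29.4, 28.4 and 23 with no compound, 21.4, 34.8 and 28 with MI-1061, and 23.2, 17.8 and 27.3 with MD-224. CHADL, TRPM6 and SHBG had normalized counts under 50 in every NCS and NCS+MD-224 library. MTUS2, a microtubule protein gene, was at 30.6, 34.6 and 18.4 with DMSO, 83.6, 122 and 152 with MI-1061, and 13.8, 52.2 and 35.6 with MD-224. After NCS, MTUS2 had 33.4, 40.3 and 44.9 with no compound, 45.2, 77.5 and 74.6 with MI-1061, and 40.1, 24.5 and 38.5 with MD-224.

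NCS without a compound left members at a median of 1.58 times DMSO, from 0.449 to 11.6, where all listed genes had 1.56 and comparison genes 2.23. The NCS libraries lay above DMSO in 46 members (58.7% of listed genes) and below it in 3, HSPA4L, LOC100288181 and TYMSOS (2.80% of listed genes). The ratio was at least 2 in 38 members and at least 4 in 12, led by SERPINB2 (11.6, and 44.6 without DMSO replicate 1), the pseudogene ANKRD26P1 (11.4), CXCL8 (9.41), VGF (9.32), MAP7D2 (7.21), EHF (6.93) and ADGRF5 (6.06). In ANKRD26P1, CXCL8, SERPINB2 and VGF the NCS mean exceeded the MI-1061 mean. Of the 38 members at 2 or above, 0 rose with MD-224 after NCS by limma, where 0 had an unadjusted p under 0.05, edgeR called 0 and DESeq2 1. Of the other 65, 16 rose (24.6%). Over all tested genes 11.3% of the 924 at 2 or above rose and 16.8% of the 2149 below it, and among comparison genes 26.1% of 138 and 52.3% of 86. The NCS libraries set both the split and the tested difference, so a lower share at 2 or above is partly built in. The 38 had a median DMSO mean of 17.5 and the 65 of 64.4. The part of level in this difference was not tested.

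The NCS+MI-1061 libraries lay above NCS in 86 members (78.7% of listed genes and 83.0% of comparison genes). MI-1061 on top of NCS gave a median ratio to NCS of 3.11 in the members (0.683 to 19.1), beside 1.97 in all listed genes and 3.84 in comparison genes. The ratio was smaller than that of MI-1061 to DMSO in 80 of 103 members, in 185 of 224 comparison genes and in 1452 of 3074 listed genes. Against MI-1061 alone, the NCS+MI-1061 libraries lay higher in 19 members (60.2% of listed genes) and lower in 23 (12.9%), within the limits set on that ratio. The members with NCS at 2 times DMSO or more had a median NCS+MI-1061 to NCS ratio of 1.99 and the others 4.03. NCS is the denominator of one ratio and the numerator of the other, so their opposite order is partly built in. NCS+MI-1061 was below NCS in CXCL8 (0.683), EGR3 (0.846) and SERPINB2 (0.896). Without NCS replicate 1 the ratios of EGR3 and SERPINB2 turned to 1.26 and 1.17, and without NCS+MI-1061 replicate 2 that of SERPINB2 was 1.08. The ratio was highest in TYMSOS (19.1), LRMP (15.7), C1QL3 (15.6) and SERPINB5 (14.8), a serpin of epithelia.

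**Figure D5:**
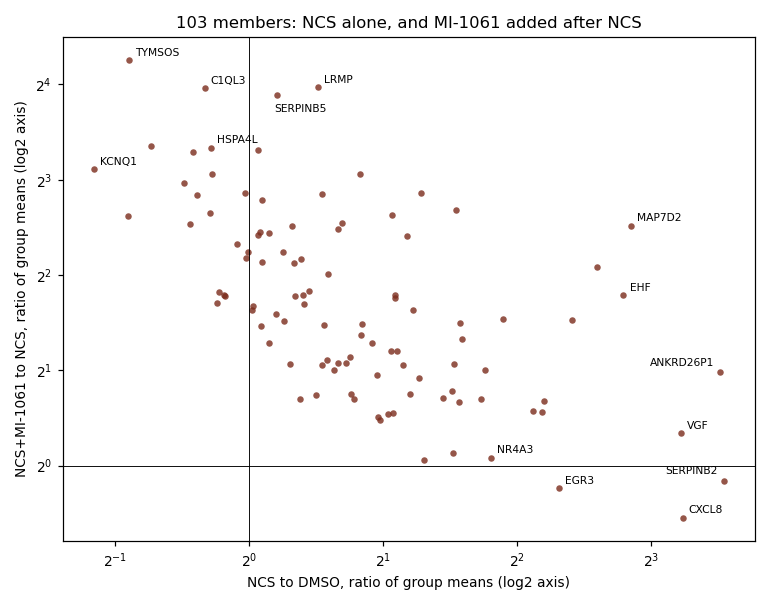
Each point is 1 of the 103 members, with the ratio of NCS to DMSO means on the x axis and of NCS+MI-1061 to NCS means on the y axis, both on log2 scales. CXCL8, SERPINB2 and EGR3 lie below the horizontal line at 1, and TYMSOS, LRMP and C1QL3 at the top; the axes share the NCS mean.

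After NCS the inhibitor group stood above the degrader group in 79 members (67.7% of listed genes) and below it in 0 (1.69%), with a median ratio of 2.16, where without NCS the median ratio of MI-1061 to MD-224 was 5.41. All listed genes had 1.59 and 1.49, and comparison genes 2.27 and 2.96. After NCS the inhibitor libraries lay above the degrader libraries in 76.7% of members and 79.0% of comparison genes. The limits fixed the ratio without NCS and bounded NCS+MI-1061, so this is a description. SERPINB5 (10.1), LRMP (6.81), CHADL (6.66) and KCNQ1 (6.45), a potassium channel gene, had the highest ratios after NCS. In SERPINB2 (0.330), CXCL8 (0.357), ACTBL2 (0.825), ANKRD26P1 (0.845), SAMD10 (0.906) and MLANA (0.925), the NCS+MD-224 mean was above the NCS+MI-1061 mean, but all 6 had overlapping libraries. Without NCS+MD-224 replicate 3 the ratios of SERPINB2, CXCL8, ANKRD26P1 and SAMD10 were 0.649, 0.738, 1.31 and 1.18, and without NCS+MI-1061 replicate 2 those of ANKRD26P1 and MLANA were 1.07 and 1.09. Without NCS+MD-224 replicate 1 the ratio of MLANA was 1.08 and that of CHADL 15.5. NCS+MD-224 libraries lay above MD-224 libraries in 67 members (48.5% of listed genes) and below them in 0 (1.89%), and the median ratio was 2.03, against 1.36 in all listed genes and 1.49 in comparison genes. The limits held the MD-224 mean of members below 1.5 times DMSO, so their higher ratio to it is partly built in.

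Read by role, the calls with MD-224 after NCS fell on 4 of 5 p53 and damage response members, 2 of 10 cytoskeletal genes (DFNB31 and KIAA1462), 2 of 7 noncoding RNAs and pseudogenes, 1 of 16 receptors, 1 of 7 secreted factors, 1 of 9 transcription regulators, 1 of 8 signalling genes, and 4 of 20 others. The role of proteases, protease inhibitors and other enzymes held 14 members, SERPINB2 and SERPINB5 among them. This role and that of channels and transporters (7) had 0 calls by limma without the replicate block, edgeR or DESeq2. They had 4 and 0 members at an unadjusted p under 0.05. With the block 3 of those 14 (ADCK3, CHST8 and DUOX2) rose, 4 of 7 noncoding RNAs and pseudogenes, 3 of 10 cytoskeletal genes, 7 of 20 others and all 5 p53 and damage response members. ABALON, LOC100288181 and LOC730202, counted as noncoding RNAs or pseudogenes, matched no RefSeq entry. Roles were assigned once the members were known. Of the 64 listed p53 targets 50 rose and 0 fell in this comparison (78.1%, against 15.1% of all genes), with a median log2 of 1.01, and under TMM scaling these numbers were 32, 1 and 0.69. Of the 5 members in that list 4 rose, and 1 with TMM scaling. Of 19 genes of the immediate early and MAPK feedback list 1 rose, with a median of 0.28 (-0.05 with TMM scaling), and their members were EGR3 and NR4A3, the latter at a log2 of -0.03 (adjusted p = 0.96 by limma). Of 12 cytokine genes 2 rose and the member CXCL8 had log2 0.54 (adjusted p = 0.671). Of 11 NF-kB pathway genes 0 rose by limma without the block, edgeR or DESeq2, with 2 at an unadjusted p under 0.05, and 1 (TNIP1) rose with the block; none is a member. Ion channel genes rose in 4 of 35, and the members in that list, which did not pass, were ANO2, CACNA1B, KCNQ1 and TRPM6. Stratified epithelium genes (7 of 19 rose) held GRHL3 as a member, striated muscle (1 of 12) XIRP1, neuronal genes (2 of 17) GABBR2, and matrix and adhesion genes (10 of 39) ITGAD, and these 4 members did not pass. The integrated stress response list (1 of 7 rose) shares SESN2 with the p53 list. With the block 2 immediate early genes and 4 neuronal genes rose. With TMM scaling 0 of the ion channel, epithelium, muscle, matrix and stress response genes rose, 1 of the neuronal genes did, and 1 epithelium gene fell.

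Membership rested on single libraries for most of the 103 genes. When each library of the 5 groups used was left out in turn (15 settings), 23 genes met every limit in all of them, among them ANKRD26P1, AQP3, CES3, CHADL, DFNB31, DLX3, EGR3, EPHB3, GABBR2, ITGAD, KBTBD8, MAP7D2, NMNAT2, NOCT, PPM1D, PSCA, RASL11B, REM2, RGS12, SELPLG, XIRP1 and ZP3. DFNB31, EPHB3, PPM1D and RGS12 among these 23 rose with MD-224 after NCS (17.4%, beside 15.5% of all members). Without DMSO replicate 2, 29 members no longer met the limits, and without NCS replicates none was lost. With group medians in place of means 65 of the 103 were chosen again, and with TMM scaling of all libraries 6. The selected table does not meet what TMM assumes, so the last number cannot tell how firm membership is.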

How the data were processed

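Poly(A) RNA-seq of SJSA-1 cells was analysed in 18 libraries (6 groups, 3 replicates each). The deposited values are normalized counts (unit: signal), which the authors deposited for 3074 genes. The submitters' processing notes name HISAT2 2.0.5.2, featureCounts 1.6.3 and DESeq2 2.11.40.6, without roles, and the build GRCh38. In 13 libraries 100% of checked values were whole multiples of 1 read (tolerance 0.01), with size factors of 0.651 to 1.55. In the other 5 the worth of 1 read was not recovered, so count tests there were left out. Correlations of replicates across genes were 0.964 to 0.992. Nothing in the labels says that replicates were separate cultures, so p-values measure the spread between these samples.

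Members and gene lists were chosen with earlier results of these data known, and roles were assigned once members were known. Only NCS+MD-224 against NCS was tested. The limits did not use NCS+MD-224 and used NCS in 1 upper limit only. Every other comparison holds the DMSO, MI-1061, MD-224 or NCS+MI-1061 group, whose means the limits set more closely, and is described without a test. Values of at least 10 in at least 3 libraries were kept (3073 genes) as log2(value + 1), which understates changes of low genes. Limma 3.58.1 (R 4.3.3) with a trended variance fitted all 6 groups at once, two-sided, with Benjamini-Hochberg adjustment and calls under 0.05. Group values in the text are means or ratios of means, and folds of the test are limma estimates taken off the log2 scale. The script was tested on simulated data.

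Residuals of like-numbered NCS and NCS+MD-224 libraries correlated at 0.281, 0.416 and 0.119 across genes. These all exceed 0.1, so the numbers were taken to pair the libraries. The labels name no shared batch, and the main analysis had no replicate block. Its calls thus ignore this pairing: 16 members and 465 genes rose without the block, and 26 and 755 with it. Alternatives were the pseudocount, the filter, TMM scaling, the compared groups only, the block, and each replicate left out. EdgeR 4.0.16, DESeq2 1.42.0 and limma on the 13 libraries, with 2 and 2 in this comparison, were added after the data were seen, as was leaving 1 library out of each ratio of means. Adjusted p values that DESeq2 did not give were left out.

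Every-library values are given for the 10 members with the highest MI-1061 mean, the 8 with the largest MI-1061 to DMSO ratio, up to 8 in each direction with the smallest p in the test, and 2 genes on either side of 2 limits. CXCL8, SERPINB2, XIRP1, C1QL3, PIDD1 and DUSP14 were added after their values were seen. Of the names 93 matched a RefSeq symbol, 7 a synonym and 3 (ABALON, LOC100288181 and LOC730202) neither. Members without a promoter entry included ABALON, ANKRD26P1, C8orf46, CCR7, CES3, CHADL, CTRL, DLX3, EGR3, GADD45A, ITGAD, KBTBD8, KCNQ1, LOC100288181, LOC730202, NGFR, PSCA, SAMD10, SELPLG and SPNS2. One member is not reported here by name. Plots used matplotlib 3.10.9 (Python 3.11.15).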

Additional observations from a re-analysis of the deposited data

Results flagged for a closer look

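In 13 members a compound went one way in all 3 libraries against the mean without NCS and the other way after NCS. The difference between the 2 settings was not tested, and the choice of members bounded MD-224 against DMSO from above, so ratios near or below 1 without NCS are partly fixed by the choice. CXCL8, the chemokine, had an MI-1061 to DMSO ratio of 5.64 and an NCS+MI-1061 to NCS ratio of 0.683. The other 12 concern MD-224, with a ratio to DMSO below 1 and a ratio of NCS+MD-224 to NCS above 1. C1QL3 went from 0.797 to 2.71, C3orf67 from 0.635 to 2.19 and EPHB3 from 0.874 to 2.16, and these 3 rose after NCS by limma. MAP7D2 went from 0.862 (1.10 without DMSO replicate 2) to 1.71, and the receptor kinase ALK from 0.584 to 1.61. DLGAP1-AS2 went from 0.965 (1.03 without DMSO replicate 2, 1.02 without replicate 3) to 1.5, FCRLA, a gene of B cells, from 0.669 (2.07 without DMSO replicate 1) to 1.5, and KBTBD8, a ubiquitin ligase adaptor, from 0.564 to 1.43. AMZ1, a metallopeptidase, went from 0.790 to 1.36, LOC100288181 from 0.544 to 1.34, the muscle gene XIRP1 from 0.419 to 1.32 and ACVR1C, an activin receptor, from 0.711 to 1.22. These last 9 did not pass limma after NCS at an adjusted p under 0.05 (KBTBD8 and DLGAP1-AS2 did with the replicate block). Without those DMSO libraries MAP7D2, DLGAP1-AS2 and FCRLA were thus above DMSO with MD-224 as well.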

How the results depend on the processing

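The number of members, 103, was 25 with TMM scaling, 174 with a limit of 2 on MD-224, and 91 to 122 with 1 library left out. In NCS+MD-224 against NCS 465 genes were called. There were 122 with TMM scaling, 755 with the replicate block, 186 to 463 without 1 library, 176 and 163 without replicate 1 and replicate 3 of every group, 165 with edgeR and 159 with limma on the 13 libraries. The 16 members called became 7 with TMM scaling, 26 with the replicate block, 8 to 17 without 1 library, 9 without replicate 1 or replicate 3 of every group, 9 with edgeR and 8 with limma on the 13 libraries. The members' median log2, 0.47, was 0.15 with TMM scaling and 0.62 with DESeq2. TMM scaling takes most genes as unchanged, which the NCS+MI-1061 and DMSO groups of this selected table do not meet. Its numbers thus cannot tell how firm the results are. In NCS+MD-224 against NCS 2660 of 3073 estimates were above 0, and the part of scaling in this was not tested. Among the members the replicate block added the 10 calls named above and ended none. Some members with log2 estimates below 0 that did not pass turned positive: IL12RB2 without replicate 2 of every group (0.00926), EGR3 without an NCS replicate (-0.66 to 0.0116), STAB2 without replicate 3 of every group (0.0396), CHADL without an NCS replicate (-1.07 to 0.393), and MTUS2 without 1 library (-0.34 to 0.0019), without replicate 2 of every group (0.0206), with edgeR (0.0906), DESeq2 (0.0908) and limma on the 13 libraries (0.0967). Fewer samples entered the settings that leave libraries out and the count tests, and otherwise the cause was not tested. Low values limit the precision of many members.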
